A study of Mus musculus with 12 samples.

Results

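The comparison was between brains of 6 Stau2GT and 6 WT mice, read once over both training states: every one of the 12 arrays of the series entered, and a single genotype difference was estimated beside a term for training. Total RNA from brain lysates was hybridized to Affymetrix mouse gene arrays, 1 array per mouse, with 3 mice in each of 4 groups. The groups were naive WT, naive Stau2GT, trained WT and trained Stau2GT. All mice were adult males of 16 to 20 weeks, and those called trained had been tested for 4 weeks in the open field, in object recognition and object location, and in the Barnes maze. The Stau2GT mice (B6.129P2-Stau2Gt(RRG396)Byg) carry a gene trap, a cassette inserted into *Stau2* that lowers its expression, in the germ line and so in all cell types. The labels give C57Bl/6J as the strain background of both genotypes and C57Bl/6J as the WT mice. Whether WT mice were littermates of the mutants is not stated in the sources used here, and the gene trap and other inherited differences between the mouse stocks cannot be told apart. Naive and trained arrays carry the names of separate array runs, so training and array run cannot be told apart, whereas each run held both genotypes.

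Staufen2, the product of *Stau2*, is a protein that binds double-stranded RNA. In neurons it travels with mRNAs into dendrites in ribonucleoprotein granules, and it takes part in the transport, stability and translation of the transcripts it holds. The Stau2GT mice serve as a model of low Staufen2 throughout life, in contrast to an acute knockdown.

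The values are log2 intensities after RMA, 1 per transcript cluster (the array's unit for a gene), so that a difference of 1 stands for a factor of 2 in intensity. Array medians lay between 5.68 and 5.79. Arrays of the same group correlated at 0.978 to 0.988 across clusters, arrays of the other genotype in the same state at 0.977 to 0.987, and arrays of the other state at 0.966 to 0.982. The neuronal marker *Rbfox3* (mean 10.01) and the glutamate transporter gene *Slc17a7* (10.51) were high. Genes of the anterior pituitary differed widely between naive arrays: *Gh*, the growth hormone gene, ranged from 8.76 to 12.91 in naive WT and from 10.44 to 12.93 in naive Stau2GT arrays, and from 5.42 to 7.94 over the trained arrays. Naive WT mouse 3 and naive Stau2GT mouse 1 stood highest, and their part in the results was measured by leaving both out. In a bulk lysate, fewer cells of a type and less RNA per cell cannot be told apart.

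*Stau2* itself was lower in Stau2GT brains in both states, by a small amount. Its values were 8.22, 8.32 and 8.21 in naive WT mice against 8.08, 8.06 and 8.07 in naive Stau2GT mice. In trained mice they were 8.27, 8.16 and 8.30 in WT against 8.02, 7.95 and 8.07 in Stau2GT brains. The genotypes did not overlap in either state. The difference was -0.21 ± 0.04 (SE, 6 against 6 mice), so that the level fell by 13.2%. It reached the smallest p that permuting genotypes within each training state allows (two-sided exact permutation test over 400 arrangements, p = 0.005), and it did not pass limma's test over all clusters (adjusted p = 0.371). Where the probes lie relative to the inserted cassette is not stated in the sources used here. *Stau1*, the gene of the paralog Staufen1, stood at 0.05 ± 0.04 (adjusted p = 0.927 from limma).

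Few transcripts differed by genotype over both training states. Of 27966 clusters tested, 23 passed an adjusted p of 0.05 (limma, 0.0822%), of which 17 were higher in Stau2GT brains (0.0608%) and 6 lower (0.0215%). Some clusters held identical values in all arrays, and the 23 clusters held 15 distinct profiles, 9 higher and 6 lower. A cluster was tested if it lay above log2 5 in at least 3 arrays. Of the 17 higher clusters, 12 (4 profiles) had no WT array above 5 and entered through the Stau2GT arrays alone. Their calls are no independent evidence, so the counts by direction are not compared. A single gene symbol belonged to 7 called clusters, several symbols to 2, and 14 (6 profiles) are unnamed here. The named genes were *Samd11*, *Anxa4* and *Lactb2*, which rose, and *Mid1* and *Zfp131*, which fell, together with the predicted transcripts *4833420G17Rik* and *Gm20172*, which also fell. In all 23 clusters the genotypes did not overlap in either training state. Of all clusters, 0.615% (172) had no overlap in both states in the same direction. The calls were made on the same arrays, so the lack of overlap in called clusters is no separate evidence. In none of the 23 did the contrast between training states pass (limma interaction, lowest adjusted p = 0.629, lowest unadjusted p = 0.028 for *Mid1*). This does not show equal differences, since a call by the additive fit favors clusters that differ alike in both states. Each state also had only 3 against 3 mice.

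**Figure D1:**
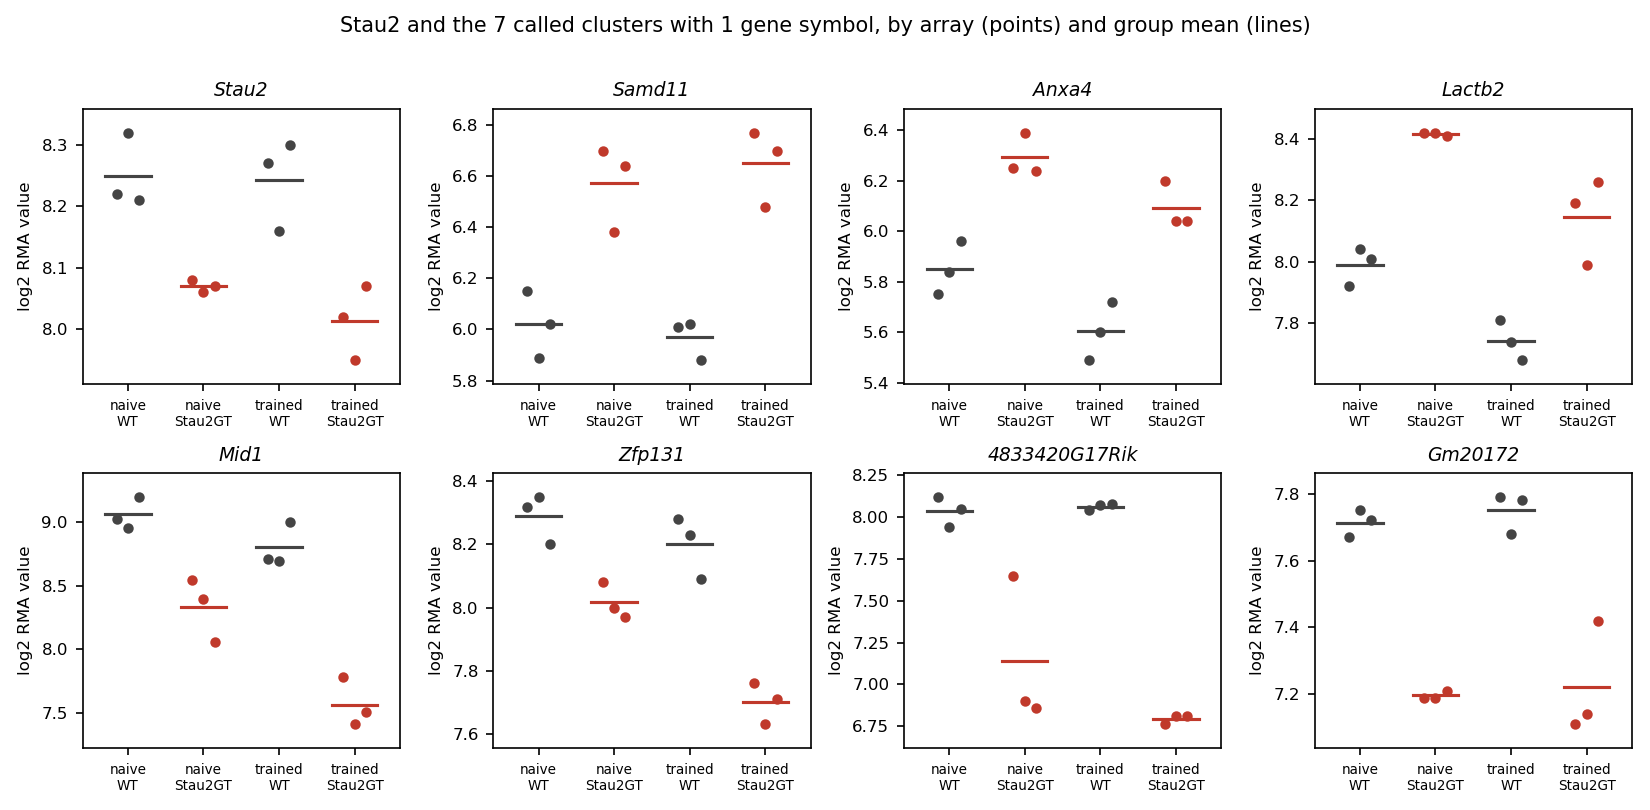
Log2 RMA values of *Stau2* and of the 7 called clusters with a single gene symbol. Each point is 1 mouse, grey for WT and red for Stau2GT, and the lines are group means of 3 mice; the vertical axes do not start at 0. In each panel the 3 Stau2GT mice of a state lie on 1 side of the 3 WT mice of that state.

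*Samd11*, which codes for a sterile alpha motif protein best known from photoreceptors, had the largest increase of the called genes with a name. It measured 6.15, 5.89 and 6.02 in naive WT brains and 6.70, 6.38 and 6.64 in naive Stau2GT brains. The trained WT values were 6.01, 6.02 and 5.88, and the trained Stau2GT values 6.77, 6.48 and 6.70. Every Stau2GT mouse lay above every WT mouse, whatever its training. The increase was 0.62 ± 0.08 (SE, 6 against 6 mice), or 1.53-fold (adjusted p = 0.00535, limma), with 0.55 in naive and 0.68 in trained mice.

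*Anxa4* codes for annexin A4, a protein that binds membranes when calcium rises. Naive WT mice had 5.75, 5.84 and 5.96, and naive Stau2GT mice 6.25, 6.39 and 6.24. In trained mice the WT values were 5.49, 5.60 and 5.72 and the Stau2GT values 6.20, 6.04 and 6.04. Both genotypes had lower means in trained mice, and the gap between genotypes was much the same in both states (0.44 and 0.49). Over both states it was 0.47 ± 0.06 (SE, 6 against 6 mice), or 1.38-fold (adjusted p = 0.00594, limma).

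*Lactb2*, the gene of a mitochondrial endoribonuclease, lies on the same chromosome as *Stau2*. The naive arrays gave 7.92, 8.04 and 8.01 in WT and 8.42, 8.42 and 8.41 in Stau2GT brains. The trained arrays gave 7.81, 7.74 and 7.68 in WT and 8.19, 7.99 and 8.26 in Stau2GT brains. Within each state the genotypes were apart, while trained Stau2GT mouse 2 (7.99) reached the level of naive WT mice. The difference was 0.42 ± 0.05 (SE, 6 against 6 mice), or 1.33-fold (adjusted p = 0.00594, limma), and nearly equal in naive (0.43) and trained (0.40) mice. The calls of *Samd11* and *Lactb2* were lost when both arrays with the most pituitary RNA were left out (adjusted p = 0.0561 and 0.0722, limma), with differences of 0.60 and 0.42, and those of the other named genes were not.

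*Mid1* had the largest decrease of the called genes with an established name. It codes for a ubiquitin ligase bound to microtubules and lies on the X chromosome, where in C57BL/6 mice it spans the border of the pseudoautosomal region. Its values were 9.03, 8.96 and 9.20 in naive WT and 8.55, 8.40 and 8.06 in naive Stau2GT brains. After training they were 8.71, 8.70 and 9.0 in WT and 7.78, 7.41 and 7.51 in Stau2GT brains. No Stau2GT mouse of either state reached the lowest WT mouse. The difference was -0.98 ± 0.12 (SE, 6 against 6 mice), so that the level fell by 49.4% (adjusted p = 0.00567, limma). It was -0.73 in naive and -1.24 in trained mice, and that contrast did not pass (interaction 0.51 lower in trained mice, adjusted p = 0.629, limma). Among the other measured genes within 10 places of *Mid1* in the gene order, *Hccs* (0.02), *Arhgap6* (-0.05) and *Msl3* (-0.07) lay near 0. *Erdr1*, which lies in the pseudoautosomal region, stood at 0.10 in naive and -1.11 in trained mice, with overlap of the genotypes in both states, and did not pass over both (-0.51, adjusted p = 0.927, limma).

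*Zfp131*, a zinc finger gene, and *4833420G17Rik* are neighbors on chromosome 13, 9 places apart. *4833420G17Rik* measured 8.12, 7.94 and 8.05 in naive WT brains and 7.65, 6.90 and 6.86 in naive Stau2GT brains. Its trained values were 8.04, 8.07 and 8.08 in WT and 6.76, 6.81 and 6.81 in Stau2GT brains. All WT arrays were alike, and among Stau2GT arrays naive mouse 1 alone lay well above the rest. The decrease was -1.09 ± 0.13 (SE, 6 against 6 mice), to 0.471 of the WT level (adjusted p = 0.00317, limma), and -1.22 without naive WT mouse 3 and naive Stau2GT mouse 1.

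For *Zfp131* the naive values were 8.32, 8.35 and 8.20 in WT and 8.08, 8.0 and 7.97 in Stau2GT brains. The trained values were 8.28, 8.23 and 8.09 in WT and 7.76, 7.63 and 7.71 in Stau2GT brains. The separation was narrow in naive mice (-0.27) and wider in trained mice (-0.50). Over both states it was -0.39 ± 0.06 (SE, 6 against 6 mice, adjusted p = 0.0399, limma). This call was the least firm of the named ones: it was lost on leaving out any single array except naive WT mouse 3 or naive Stau2GT mouse 1 (adjusted p from 0.0243 to 0.123 over the 12 omissions). It was also lost with no filter (0.0759), with arrays centered on their medians (0.0635) and with array weights (0.0645).

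Between and beside these genes the differences were mixed. *Nnt*, the gene of the mitochondrial transhydrogenase, which carries a deletion in C57BL/6J mice, lies 2 places before *4833420G17Rik* and stood at -0.25 ± 0.09 (adjusted p = 0.802, limma). Its naive values were 7.91, 7.72 and 7.98 in WT and 7.49, 7.44 and 7.36 in Stau2GT brains, while the trained genotypes overlapped (7.40 to 7.52 in WT, 7.20 to 7.55 in Stau2GT). The chemokine gene *Ccl28* stood at -0.37 (adjusted p = 0.764), and *Hmgcs1*, of the cholesterol synthesis pathway, at 0.19 (adjusted p = 0.778, both limma). None of these passed.

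*Gm20172*, a predicted transcript on chromosome 1, fell evenly in both states. Naive mice had 7.67, 7.75 and 7.72 in WT and 7.19, 7.19 and 7.21 in Stau2GT brains. Trained mice had 7.79, 7.68 and 7.78 in WT and 7.11, 7.14 and 7.42 in Stau2GT brains. The gap was about as wide in both states, with trained Stau2GT mouse 3 (7.42) nearest to WT. The difference was -0.52 ± 0.06 (SE, 6 against 6 mice, adjusted p = 0.00145, limma).

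The strongest statistical separation came from clusters with no single gene name. Cluster 17225329, which has several symbols, measured 7.89, 8.06 and 8.21 in naive WT and 6.87, 6.86 and 6.66 in naive Stau2GT brains. In trained mice it measured 7.86, 8.04 and 7.91 in WT and 6.75, 6.77 and 6.80 in Stau2GT brains. All WT arrays thus lay near 8 and all Stau2GT arrays below 7, a difference of -1.21 ± 0.06 (SE, 6 against 6 mice, adjusted p = 2.68e-06, limma). Another cluster with several symbols, 17539700, 1 of which is *Mid1*, stood at -1.02 ± 0.16 (adjusted p = 0.0388, limma). It stood at -1.21 in naive and -0.82 in trained mice, the reverse of the order in the cluster read as *Mid1*, and neither contrast between states passed (limma interaction, adjusted p = 0.796 and 0.629). The call of 17539700 was lost in 9 of the 12 omissions of an array (highest adjusted p = 0.124).

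The unnamed clusters all rose. One profile, shared without any difference by 9 clusters, went from 4.70, 4.55 and 4.38 in naive WT to 6.93, 6.70 and 6.92 in naive Stau2GT brains. In trained mice it went from 4.68, 4.78 and 3.94 to 7.49, 7.22 and 7.39. In 4 of the 6 profiles, 12 clusters and this one among them, no WT array passed the log2 minimum of 5 and every Stau2GT array did. They entered the test through the Stau2GT arrays alone, so that their calls are no independent evidence and only a bound on the change is given. Set against the minimum of 5 in place of the WT level, the shared profile was at least 4.31-fold higher in Stau2GT brains and the other 3 at least 1.64 to 2.06-fold. The remaining 2 profiles, measured above 5 in all arrays, rose by 1.40 and 1.55. Which transcripts these clusters measure is not stated in the sources used here.

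No broad genotype response shared by the training states was seen. The median size of a difference was 0.073 in naive and 0.087 in trained mice. With 3 against 3 mice in each state, a shared response of such small changes could be missed. Naive and trained differences come from separate mice, and across all clusters they were nearly unrelated (Pearson r = 0.055, Spearman rho = -0.059, over 27966 clusters, which are not independent of each other). Without overlap in both states, 172 clusters moved in the same direction (0.615%), 97 higher (0.347%) and 75 lower (0.268%), and 203 in opposite directions (0.726%). Fitted alone, the 6 naive arrays gave 22 called clusters and the 6 trained arrays 16. The fits shared 13 of these, all in the same direction, which was 59.1% of the naive and 81.2% of the trained calls. These 13 clusters held 5 profiles, and none had a single gene symbol. Of them, 12 clusters (4 profiles) were those with no WT array above the minimum of 5, whose calls are no independent evidence. The remaining shared call was cluster 17225329.

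Differences were also small. Of the 27966 clusters, 20393 differed by less than 0.1 between genotypes, and 24 by 1 or more, of which 17 were called. At an unadjusted p under 0.05 from limma there were 1601 clusters (5.72%), 822 higher (2.94%) and 779 lower (2.79%).

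**Figure D2:**
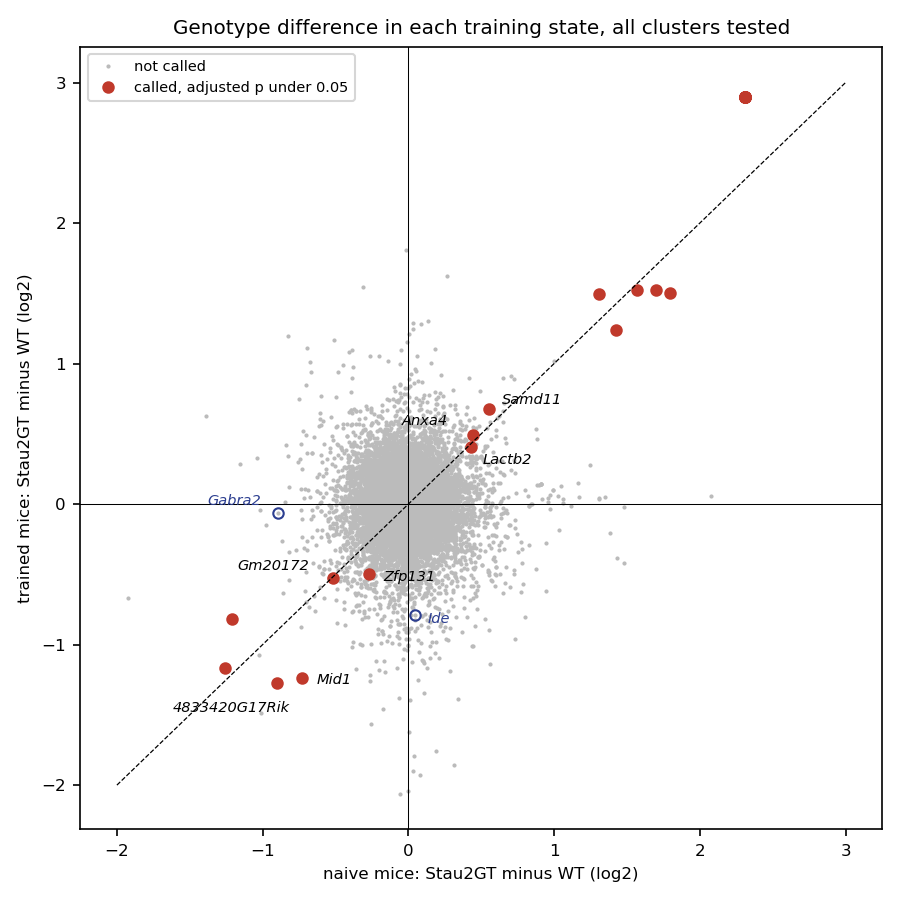
Genotype difference (Stau2GT minus WT, log2) of each of 27966 clusters in naive mice (horizontal axis) and trained mice (vertical axis), with 3 against 3 mice in each. Red points are the 23 clusters called over both states (9 share 1 point at the upper right), blue rings are *Gabra2* and *Ide*, and the dashed line marks equal differences. The grey cloud is round, and the called clusters lie along the dashed line, a position that a call over both states itself favors.

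The next named genes by unadjusted p did not pass the test, and several separated the genotypes in both states. *Opalin*, a gene of myelinating oligodendrocytes, measured 6.97, 7.29 and 7.07 in naive WT and 7.63, 7.48 and 7.47 in naive Stau2GT brains. Trained mice gave 7.15, 7.29 and 7.22 in WT and 7.71, 7.73 and 7.45 in Stau2GT brains. All Stau2GT mice lay above all WT mice, by 0.41 ± 0.07 (SE, 6 against 6 mice, adjusted p = 0.0681, limma; two-sided exact permutation p = 0.005). That permutation p is the smallest possible. *Opalin* was picked by its unadjusted p in the same arrays, so neither the permutation p nor the lack of overlap is separate evidence. *Opalin* passed when naive WT mouse 2 or trained Stau2GT mouse 3 was left out (adjusted p = 0.0384 and 0.0328, limma). In 10 of the 12 omissions of an array it did not pass (adjusted p up to 0.247, limma).

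Among the other genes on the higher side, *Clec14a* (an endothelial lectin) stood at 0.30, *Tprkb* (part of the complex that modifies transfer RNAs) at 0.26, *Il33* (an alarmin cytokine that glia store in the nucleus) at 0.23 and *Tmem86a* (a lysoplasmalogenase) at 0.22. *Limd1* (a scaffold protein of the LIM family) stood at 0.23 and *Tifa* (an adaptor of innate immune signaling) at 0.32. On the lower side stood *Chil1* (a chitinase-like protein of astrocytes) at -0.32, *Sacm1l* (a phosphoinositide phosphatase) at -0.29 and *P3h1* (a collagen prolyl hydroxylase) at -0.26. Their adjusted p-values from limma ran from 0.240 to 0.758. *Clec14a*, *Il33*, *Tmem86a*, *Tifa* and *Sacm1l* had no overlap of the genotypes in either state. Of all clusters, 0.615% had none in both states in the same direction. These genes were picked by unadjusted p in the same arrays, so their lack of overlap is no separate evidence. *Clec14a* was near the lower end of the measurable range, with 4 WT and 6 Stau2GT arrays above 5.

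Genes of the chromosome that carries *Stau2* were frequent among the smallest p-values, a count that was made after the values were seen. It covers genes read from a cluster with a single symbol, so clusters with several symbols or none are left out. On chromosome 1, 9 of 953 genes had an unadjusted p under 0.001 (0.944%), against 12 of 15344 genes on the other chromosomes (0.0782%), with p from limma. *Stau2* itself is 1 of the 9. *Mcmdc2*, also among them, entered the test through WT arrays alone, so its p is no independent evidence. No overlap in both states in the same direction was found for 1.05% of chromosome 1 genes and 0.541% of the others. The 9 were *Lactb2*, which rose, *Gm20172*, which fell, and 7 that did not pass: *Stau2*, *Adhfe1*, *Mcmdc2*, *Mcm6* and the transcripts *Snord89*, *Scarna6* and *Gm6177*, all below 0.

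The positions of these genes reached from close to *Stau2* to the far part of the chromosome. In the order of annotated genes, counted from *Stau2* as 0, *Lactb2* lies at place -33, *Mcmdc2* at -72 and *Adhfe1* at -84. On the other side *Gm20172* lies at place 107 and *Mcm6* at 1531. *Crispld1*, at place 24, ranked next among the lower genes of this chromosome.

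*Adhfe1*, the gene of a mitochondrial hydroxyacid dehydrogenase, measured 7.21, 7.39 and 7.32 in naive WT and 7.11, 6.94 and 7.20 in naive Stau2GT brains. Trained mice had 7.45, 7.51 and 7.43 in WT and 7.03, 6.98 and 7.14 in Stau2GT brains. The genotypes were apart in both states, barely so in naive mice, with a difference of -0.32 ± 0.06 (SE, 6 against 6 mice, adjusted p = 0.219, limma).

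*Mcmdc2*, a meiotic relative of the replicative helicase genes, was near the lower end of the measurable range. Naive mice had 5.06, 5.08 and 5.13 in WT and 4.51, 4.54 and 4.43 in Stau2GT brains. In trained mice the genotypes overlapped (4.74 to 5.07 in WT, 4.49 to 4.86 in Stau2GT). No Stau2GT array and 4 WT arrays were above 5, and the difference was -0.42 ± 0.09 (SE, 6 against 6 mice, adjusted p = 0.345, limma). *Crispld1*, the gene of a secreted protein, stood at -0.39 ± 0.09 (adjusted p = 0.600, limma), with a wider gap in trained (-0.50) than in naive mice (-0.28) and overlap in naive mice.

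Within 10 places of *Mcmdc2*, 9 other genes were measured, from -0.31 to 0.06, of which 7 lay below 0 and 2 above, and none passed. Those with an unadjusted p under 0.05 from limma were 4, all below 0, and 4.82% of all genes had such a p. *Mcmdc2* was picked by its low p in the same arrays, so the count beside it is no independent evidence. In naive mice the genotypes overlapped in each of the 4. *Snhg6*, a host gene of a small nucleolar RNA, stood at -0.31, *Mybl1*, of a transcription factor of meiosis, at -0.18, *Cspp1*, of a ciliary protein, at -0.16, and *Cops5*, a subunit of the COP9 signalosome, at -0.13 (limma adjusted p from 0.758 to 0.870).

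Among the 50 annotated genes on each side of *Stau2*, 26 were measured, 14 higher and 12 lower, with a median of 0.03 against 0.00 over all genes. Only *Lactb2* passed (1 of 26). The direct neighbors *Rdh10*, of retinoid metabolism, 1 place before *Stau2* (0.05 ± 0.07), and *Ube2w*, of ubiquitin conjugation, 3 places after it (-0.05 ± 0.08), lay within their errors of 0. *Tram1*, the neighbor of *Lactb2*, stood at -0.03 ± 0.05. *Ncoa2*, of a nuclear receptor coactivator, was measured in WT at 9.12 to 9.26 and in Stau2GT at 8.99 to 9.09. It did not overlap between genotypes and stood at -0.15 ± 0.04 (SE, 6 against 6 mice, adjusted p = 0.758, limma). *Kcnb2*, of a voltage-gated potassium channel, stood at -0.12 ± 0.05 (adjusted p = 0.868, limma).

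**Figure D3:**
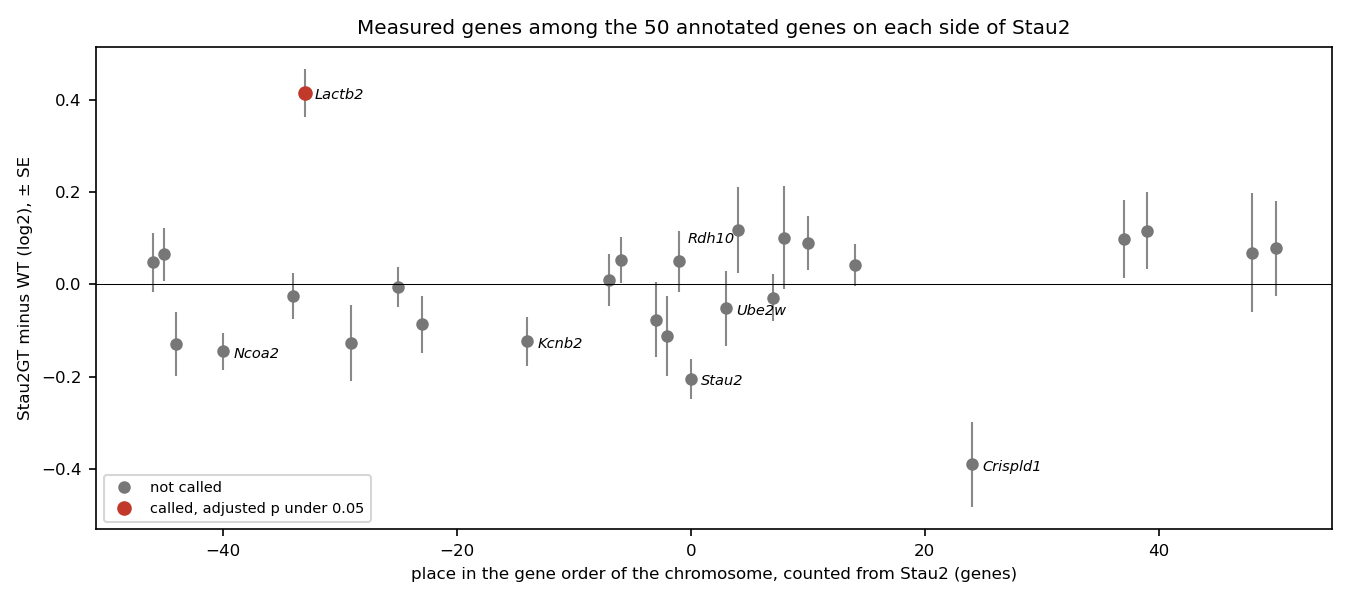
Genotype difference (Stau2GT minus WT, log2, additive model) of the measured genes among the 50 annotated genes on each side of *Stau2*, with the standard error from 6 against 6 mice, by place in the gene order (horizontal axis, not distance in bases). *Lactb2* at 0.42 is the only called gene (red), and apart from *Stau2* (-0.21) and *Crispld1* (-0.39) the others lie within 0.15 of 0.

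The neighbors of *Anxa4* and *Gm20172* lay close to 0. Beside *Gm20172*, 4 genes within 10 places were measured, from -0.04 to 0.04. Beside *Anxa4*, 12 were measured, from -0.11 to 0.13, of which *Aak1*, of a clathrin adaptor kinase, stood at -0.11 ± 0.04 (adjusted p = 0.802, limma) with no overlap in either state. Beside *Samd11*, 4 were measured, with *Noc2l*, 2 places away, at -0.17.

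In some genes the genotype difference lay mainly in a single training state, where the pooled difference describes neither. The difference between states passed for *Ide* and not for *Gabra2* and *Ppp3r2*. *Gabra2*, which codes for the alpha2 subunit of GABA-A receptors, measured 10.44, 10.45 and 10.37 in naive WT and 9.62, 9.41 and 9.54 in naive Stau2GT brains. In trained mice it measured 9.16, 9.30 and 9.23 in WT and 9.29, 8.98 and 9.22 in Stau2GT brains. Naive WT mice alone stood high, and the other 9 mice lay between 8.98 and 9.62. The pooled value of -0.48 ± 0.14 did not pass (adjusted p = 0.758, limma), with -0.90 in naive and -0.07 in trained mice (interaction adjusted p = 0.132, limma).

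*Ide*, the gene of insulin-degrading enzyme, showed the converse. It measured 9.13, 9.05 and 9.12 in naive WT and 9.06, 9.19 and 9.18 in naive Stau2GT brains. Trained WT mice had 9.89, 9.87 and 9.77, and trained Stau2GT mice 8.99, 9.06 and 9.12. Only trained WT mice stood apart from the rest. The pooled value was -0.37 ± 0.13 (adjusted p = 0.802), and the difference between states passed (interaction -0.83 ± 0.09, adjusted p = 0.0147, both limma).

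*Ppp3r2*, a regulatory subunit of calcineurin, stood at -0.62 in trained and -0.05 in naive mice (interaction adjusted p = 0.262, limma). Its pooled value was -0.34 ± 0.10 (adjusted p = 0.764, limma). It was near the lower end of the measurable range, with 4.95, 4.86 and 4.94 in trained Stau2GT mice. All 6 WT arrays and 3 Stau2GT arrays were above 5. In a model of 4 group means, which removes the gap between states from the error, the average over both states of *Gabra2*, *Ide* and *Ppp3r2* passed (adjusted p = 0.0119, 0.00906 and 0.0469, limma). The other named calls did not rest on the choice between these models.

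**Figure D4:**
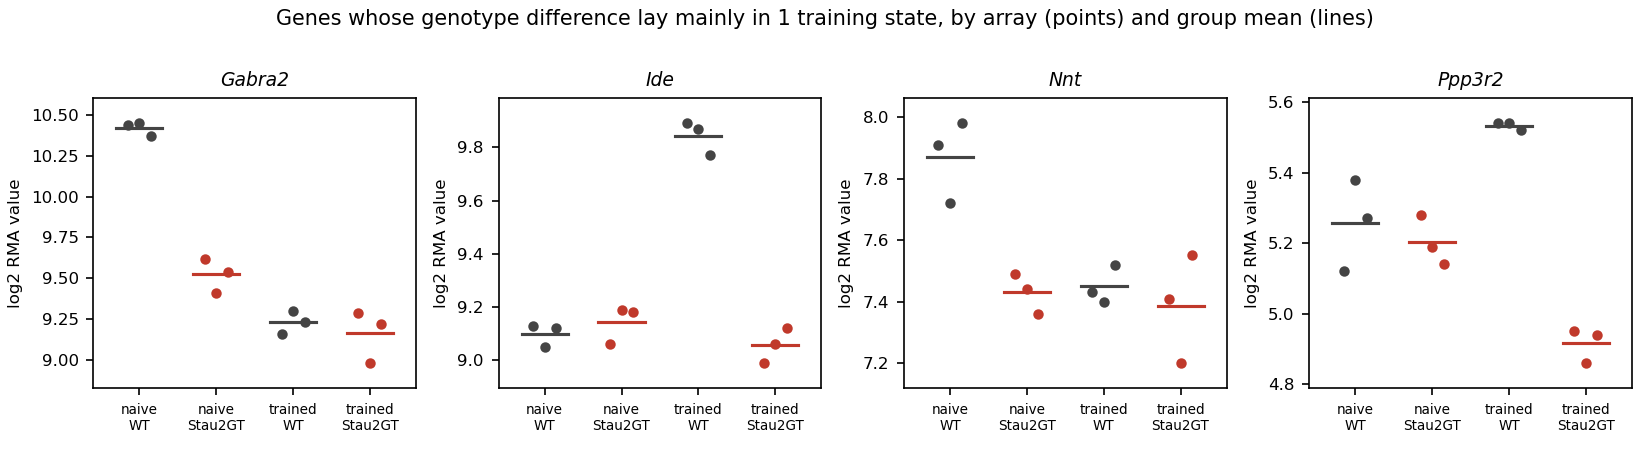
Log2 RMA values of *Gabra2*, *Ide*, *Nnt* and *Ppp3r2*, each point 1 mouse (grey WT, red Stau2GT) and lines the means of 3 mice; the vertical axes do not start at 0. In *Gabra2* the naive WT mice and in *Ide* the trained WT mice stand apart from the other 9.

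*Gabra2*, *Ide* and *Nnt* belong to a list of 14 genes reported to differ between C57BL/6 sublines, of which 9 were measured. In this list 4 genes were higher and 5 lower, with a median of -0.03, and none passed. Those with an unadjusted p under 0.05 for the pooled difference were *Gabra2*, *Ide* and *Nnt*, which is 33.3% of the list against 4.82% of all genes. The list was chosen with earlier results of these data known, so this share is no independent evidence. In each of these 3 genes the WT mice of 1 state stood above the others, naive WT for *Gabra2* and *Nnt* and trained WT for *Ide*. The labels give C57Bl/6J for both genotypes, and whether the mice of any group departed from it was not tested.

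Gene lists for the cell types and pathways of the study were described by their counts and medians, beside those of all 16425 genes, of which 51.4% were higher with a median of 0.00. Apart from the neighbors of *Stau2*, no list had a called member. This held for genes of Staufen and neuronal granule partners, where 12 of 22 were higher, with a median of 0.01. The extremes were *Stau2* (-0.21) and *Pum2*, a translational repressor (-0.10), on the lower side and *Syncrip* (0.14), an RNA-binding granule protein, on the higher side. Of 14 reported Staufen2 target mRNAs, 10 were higher (median 0.04), from *Cplx1*, of the synaptic fusion machinery (-0.13), to *Cbln1* (0.12) and *Bbs2*, of the ciliary BBSome (0.11).

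*Cbln1* codes for cerebellin 1, which granule cells release to join parallel fibers to Purkinje cells. It measured 8.43, 8.46 and 8.96 in naive WT and 8.46, 8.83 and 8.70 in naive Stau2GT brains. Trained mice had 8.47, 8.64 and 8.44 in WT and 8.67, 8.78 and 8.68 in Stau2GT brains. The genotypes overlapped widely in naive mice and were just apart in trained mice. The pooled difference was 0.12 ± 0.10 (SE, 6 against 6 mice, adjusted p = 0.933 from limma; two-sided exact permutation p = 0.265), with a 95% interval from -0.09 to 0.33. It was 0.20 without naive WT mouse 3, and 0.24 without that mouse and naive Stau2GT mouse 1. *Cbln3*, which works with cerebellin 1 in granule cells, stood at 0.14 ± 0.11 (adjusted p = 0.927, limma), and from 0.09 without naive Stau2GT mouse 2 to 0.22 and 0.23 without naive WT mouse 3 and naive Stau2GT mouse 1.

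Of 16 genes of the parallel fiber to Purkinje cell synapse, 11 were higher (median 0.01), with *Homer3*, a scaffold of Purkinje spines, at 0.16 and *Grip1*, a scaffold of glutamate receptors, at -0.14 as the ends. The neuronal markers *Slc17a7* (-0.02 ± 0.06), *Calb1* (0.07 ± 0.06) and *Rbfox3* (0.02 ± 0.05) did not pass (limma adjusted p from 0.940 to 0.991).

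Of 23 Purkinje cell markers 18 were higher (median 0.07, 0.06 in naive and 0.10 in trained mice). The highest were *Atp2a3*, an endoplasmic calcium pump (0.30 ± 0.09), and *Slc1a6*, the Purkinje glutamate transporter (0.23 ± 0.09), and neither passed (adjusted p = 0.768 and 0.830, limma). The mean level of the list ranged from 8.17 to 8.37 in naive WT and from 8.18 to 8.39 in naive Stau2GT mice, and from 8.21 to 8.30 and 8.32 to 8.37 in trained mice. Genotypes thus overlapped in naive mice. Granule cell markers were closer to balance, with 17 of 29 higher and a median of 0.01, from *Eomes*, of unipolar brush cells and other neurons (-0.31), to *Zic5*, a transcription factor (0.16).

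Choroid plexus markers all lay above 0, 11 of 11, with a median of 0.16 (0.12 in naive and 0.15 in trained mice). None passed, and 3 had an unadjusted p under 0.05 from limma. *Ttr*, the transthyretin gene and the most abundant of them, measured 12.22, 11.97 and 12.41 in naive WT and 12.49, 12.59 and 12.37 in naive Stau2GT brains. Trained mice had 12.28, 12.44 and 11.97 in WT and 12.48, 12.34 and 12.32 in Stau2GT brains. The genotypes overlapped in both states, with the lowest value of each state in WT. *Ttr* stood at 0.22 ± 0.09, *Folr1*, of the folate receptor, at 0.29 ± 0.11 and *Slc4a5*, of a bicarbonate transporter, at 0.23 ± 0.10 (limma adjusted p from 0.829 to 0.859). The mean level of the list overlapped between genotypes in both states, 6.71 to 7.05 in WT and 6.92 to 7.12 in Stau2GT naive mice and 6.60 to 6.92 and 6.85 to 7.07 in trained mice. How much of this came from the amount of choroid plexus in a sample was not tested.

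Glucocorticoid-induced genes were on the lower side, 20 of 21, with a median of -0.12 (-0.14 in naive and -0.10 in trained mice), and none passed. *Lcn2*, of the acute-phase protein lipocalin 2, stood lowest at -1.30 ± 0.50 (adjusted p = 0.825, limma). Its values were 8.93, 5.51 and 8.46 in naive WT and 5.71, 6.07 and 5.35 in naive Stau2GT brains, and 6.09, 6.35 and 5.50 against 5.27, 5.44 and 5.22 in trained mice. The naive WT mice 1 and 3 alone carried high *Lcn2*. *Sgk1*, a kinase gene induced by corticosterone, was high in the same mice (8.73 and 8.94, against 7.68 in naive WT mouse 2). It was as high in trained WT mouse 1 (8.76), lay from 7.64 to 8.25 in the remaining mice, and stood at -0.54 ± 0.21. The mean level of the list was 7.90 and 7.92 in naive WT mice 1 and 3. Naive WT mouse 2 (7.41) lay below every Stau2GT mouse, and naive Stau2GT mice ranged from 7.46 to 7.53. In trained mice the genotypes were just apart, at 7.56 to 7.71 in WT and 7.43 to 7.54 in Stau2GT. The circadian gene *Per1*, which glucocorticoids also induce, stood at -0.22 ± 0.11.

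Several lists had medians of opposite sign in the states. Leaving aside blood cell markers, of which 3 were measured, the gap was widest for mature oligodendrocyte and myelin genes (0.11 in naive and -0.10 in trained mice) and activity-induced genes (0.05 and -0.15). Among activity-induced genes, *Fos* (0.32 ± 0.15) and *Npas4* (0.28 ± 0.17) were highest and *Sik1* (-0.18 ± 0.07) lowest. *Npas4* stood at 0.53 in naive and 0.03 in trained mice, and over both at 0.13 without naive WT mouse 3. *Fos* (0.63 in naive and 0.01 in trained mice) was apart in naive mice, at 5.63 to 6.19 in WT and 6.27 to 6.73 in Stau2GT, and overlapped in trained mice. Of the oligodendrocyte genes, *Opalin* and *Cldn11*, of a tight junction protein of myelin, were highest. *Cldn11* was measured at 9.89 to 9.99 in WT and 10.06 to 10.13 in Stau2GT naive mice. In trained mice it was 10.06 to 10.09 and 10.14 to 10.24, apart in both states by a small amount (0.13 ± 0.04, adjusted p = 0.766, limma). The list as a whole, at 13 of 21 higher and a median of 0.04, did not follow these genes.

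The remaining lists of brain cells and regions lay between medians of -0.09 (olfactory bulb, 10 of 14 lower) and 0.05 (endothelial cells and pericytes, 13 of 17 higher). Anterior pituitary hormone genes had a median of 0.35 (7 of 8 higher), of which *Gh* stood at 1.01 ± 0.65 (adjusted p = 0.902, limma). The median was 0.32 without the pair of arrays highest in these genes. Leaving out 1 array moved it to 0.11 without naive Stau2GT mouse 1 or naive WT mouse 2, to 0.18 without naive WT mouse 1 and to 0.63 without naive WT mouse 3.

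**Figure D5:**
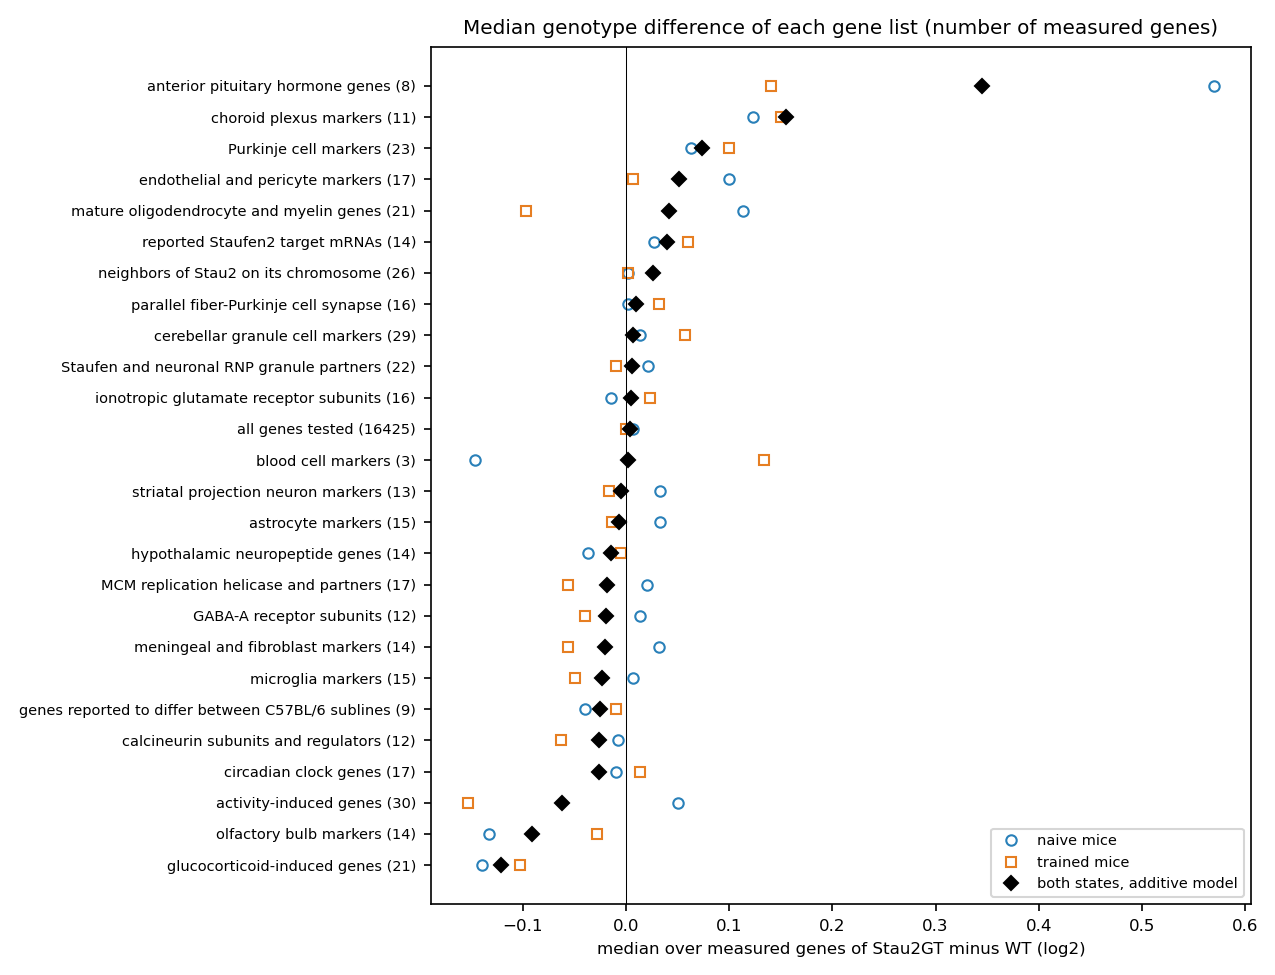
Median genotype difference (Stau2GT minus WT, log2) of each gene list, with the number of measured genes in parentheses: diamonds for both states, circles for naive and squares for trained mice. All genes have a median of 0.00, choroid plexus markers (0.16) and glucocorticoid-induced genes (-0.12) lie on the same side in both states, and oligodendrocyte and activity-induced genes lie on opposite sides.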

How the data were processed

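Total RNA of 12 mouse brains was measured on Affymetrix MoGene 2.0 ST arrays. The authors normalized the intensities with RMA, and the deposited values are log2, 1 per transcript cluster and array. The sources used here do not state whether both array runs were normalized in 1 step. Of 41345 clusters, those above log2 5 in at least 3 arrays were tested (27966 clusters: 17331 with 1 symbol in the platform annotation, 1278 with several, 9357 unnamed here; 16425 genes). limma 3.58.1 in R 4.3.3 fitted genotype and training state (9 residual and 2.79 prior degrees of freedom), with Benjamini-Hochberg adjustment over all clusters. A model of 4 group means gave the naive, trained and interaction contrasts. Exact permutation tests for single genes permuted genotypes within training states. No test replaced the counts and medians of the 25 gene lists. The labels number the arrays of a group as replicates and say no more on how mice were sampled, so that p-values measure the spread between these samples. Alternatives covered the filter, the scaling, the variance moderation, array weights, the replicate block, the training term, single states, the methods' t-test and leaving out arrays.

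Members and lists were chosen with earlier results of these data known. Named were *Stau2*, genes of the study's text, every called gene, the 10 genes at each end (filled up by unadjusted p), genes placed beside these, and, of the lists described, members at the ends far from 0. Gene order came from the RefSeq annotation of GRCm38.p6, used for that alone. Symbols that name predicted genes were counted but not ranked. In simulated data (27966 clusters, 50 of them changed by each size), the additive fit for the genotype difference recovered 2% of changes of 0.2, 32% of 0.3, 62% of 0.5 and 92% of 1 on the log2 scale, with 3 false calls. Some items are not reported here.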

Additional observations from a re-analysis of the deposited data

Results flagged for a closer look

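Within a genotype, 6 arrays were checked for a single array far from the others after the difference between training states had been removed. Of 130 such groups (65 genes), 8 had one, and chance gives about 1 in 20. Naive Stau2GT mouse 1 stood apart in *4833420G17Rik* (7.65, against 6.76 to 6.90 in the other Stau2GT mice) and in *Cbln1* (8.46, against 8.67 to 8.83). It was also the array highest in pituitary genes among Stau2GT mice. Trained Stau2GT mouse 1 stood apart in *Sacm1l* (8.79, against 9.13 to 9.41) and *Sgk1* (8.25, against 7.64 to 7.87). Trained WT mouse 1 did so in *Ube2w* (8.83, against 8.55 to 8.98 before the states were set level) and *Stau1* (8.35, against 8.44 to 8.49). Trained WT mouse 2 did so in *Rdh10* (6.88, against 7.05 to 7.24) and *Hmgcs1* (10.41, against 10.25 to 10.31).

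The genotype difference of *Ide* differed between training states by -0.83 (limma interaction, adjusted p = 0.0147), with 0.04 in naive and -0.79 in trained mice.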

How the results depend on the processing

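Over both states, 23 clusters were called (17 higher, 6 lower). Of the higher ones, 12 (4 profiles) entered the test through the Stau2GT arrays alone. Counting identical profiles once left 15 (9 higher), and counting clusters with 1 symbol left 7 (3 higher) and 94 of the 172 clusters without overlap in both states; both counts were chosen after seeing the data. The group means model called 12 lower clusters (33 in all), and the methods' t-test of 6 against 6 arrays 3 lower (18 in all, and 1154 at an unadjusted p under 0.05). The other alternatives gave 16 to 25 clusters. Leaving out each array in turn gave 21 to 25 clusters, 17 to 19 higher and 4 to 6 lower. With the replicate number as a block 21 were called (17 higher, 4 lower), and *Zfp131* (adjusted p = 0.0746) and cluster 17539700 (0.103) did not pass. Equal numbers did not pair the mice, since deviations of same-numbered mice correlated at -0.10 to 0.07. With training left out of the model, *Anxa4*, *Lactb2*, *Mid1* and *Zfp131* did not pass (adjusted p = 0.142, 0.430, 0.184 and 0.402, limma).

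Signs turned in the naive arrays alone for *Rbfox3* (-0.0033), *Ide* and *Tram1* (both 0.0433), *Ube2w* (0.0033) and *Rdh10* (-0.0533). On leaving out single arrays, or both arrays with the most pituitary RNA, they turned for *Slc17a7* (-0.0578 to 0.00037), *Rdh10* (-0.0074 to 0.088) and *Rbfox3* (-0.0026 to 0.0404). The causes were not tested. Medians of the choroid plexus (0.11 to 0.22), Purkinje (0.04 to 0.10) and glucocorticoid lists (-0.18 to -0.09) kept their signs in the 23 settings run. Centering arrays moved the median of all clusters from 0.0017 to -0.01. No named gene had over 1 tested cluster with its symbol alone, so averaging clusters was not run, and the blood cell list had no value with the minimum at 6. The number of arrays limits the precision, and changes under 0.3 would mostly have been missed.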
